A study of Bos taurus with 3 samples.

Results

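The series profiled small RNA of purified large dense-core vesicles of cattle, and 7 mature miRNAs linked to immune cells were examined here among 793 mature miRNAs of the count table. The vesicles came from chromaffin cells, the endocrine cells of the adrenal medulla that release adrenaline and noradrenaline, and they store these hormones together with peptides. The members were taken by name (miR-146a, miR-146b, miR-155, miR-142, miR-150 and miR-223, with any arm), and all 6 names were found. They gave 7 mature miRNAs because miR-142 is listed with both arms. The members bear the names bta-miR-146a, bta-miR-146b, bta-miR-155, bta-miR-142-5p, bta-miR-142-3p, bta-miR-150 and bta-miR-223 in the table, and the species prefix is left out below. The set was chosen by name but with measured values of these libraries known, among them the low CPM of miR-146a and miR-146b in the biological replicate against the technical pair, so the difference between preparations is given below as a description, without a p-value for any member.

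The series held 3 libraries: biological replicate 1, and technical replicates 1 and 2. All came from the adrenal medulla of cows from local slaughter, with no treatment, strain, age or genotype given. Neither the step that was repeated within the technical pair nor the number of animals per preparation is in the labels. From its titles the pair was taken as the same preparation and averaged, and means ± SD were taken over n = 2 preparations. With each mature miRNA counted once, the totals were 6708654 counts in biological replicate 1, and 5546771 and 6251664 in technical replicates 1 and 2. Levels are given in CPM, counts scaled to a common library total, and a count of 0 would allow up to 3 counts, or 0.447 to 0.541 CPM. No library of whole chromaffin cells, of leukocytes or of another fraction was analysed here. miR-375 and miR-7, known from endocrine cells, together took 47.3% of the counts in the biological replicate, and 44.1% and 42.8% in technical replicates 1 and 2.

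A miRNA is cut from a hairpin precursor and then guides the silencing of messenger RNAs that match its seed, the bases near its 5′ end. Most of what is known of these members comes from human and mouse cells. miR-146a and miR-146b share a seed and act as a brake on NF-kappaB signalling through TRAF6 and IRAK1. miR-155 is made in activated lymphocytes and macrophages. Both arms of miR-142 are abundant across blood cell lineages, miR-150 marks mature lymphocytes and miR-223 marks neutrophils and other myeloid cells.

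Each member had a single hairpin in the count table. The 6 hairpins matched RefSeq genes of the assembly ARS-UCD2.0 by name, which served for gene neighbours only. MIR142 lay within TSPOAP1 and a long non-coding RNA gene, with MPO, the gene of neutrophil myeloperoxidase, as the coding gene on one side and SUPT4H1 on the other. MIR223 lay within VSIG4, a gene known from macrophages, and within a long non-coding RNA gene. The others lay in no other listed gene. MIR146A lay between the coding genes PTTG1 and ATP10B, MIR146B between CUEDC2 and C26H10orf95, and MIR155 between MRPL39 and NCAM2.

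All 7 members were detected in every library, and miR-146b and miR-146a averaged above 100 CPM, the others below. Together the 7 held 0.0900% of all counts in the biological replicate (exact 95% interval 0.0877 to 0.0923%), and 0.245% (0.241 to 0.250%) and 0.274% (0.270 to 0.278%) in technical replicates 1 and 2. Of these member counts, miR-146b made up 86.4% in the biological replicate, and 88.6% and 89.8% in the technical replicates. Intervals are Clopper-Pearson intervals and, like the limit for a count of 0, cover counting error only.

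miR-146b (MIMAT0009235) reached 777 CPM in biological replicate 1, against 2174 and 2461 CPM in technical replicates 1 and 2. The biological library was low and lay far outside the range of the pair, whose own ratio was 1.13. The mean was 1547 ± 1089 CPM (SD, n = 2), which placed miR-146b at rank 49 of the 793. Its rank was 75 in the biological replicate, and 44 and 41 in the technical replicates. In the order of means miR-146b stood between miR-374b (1624 ± 134 CPM) and miR-1839 (1443 ± 76.4 CPM), and it differed from neither by as much as its SD.

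miR-146a (MIMAT0009236) reached 72.1 CPM in biological replicate 1, against 202 and 204 CPM in technical replicates 1 and 2. The pair was nearly equal and the biological library was again the low one. Its mean was 138 ± 92.6 CPM (SD, n = 2), at rank 150, next to miR-299 and miR-758.

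miR-142-5p (MIMAT0003790) had 20.1 CPM in the biological replicate, and 39.1 and 34.9 CPM in technical replicates 1 and 2. Its counting intervals, 16.9 to 23.8 CPM in the biological replicate and 34.1 to 44.7 and 30.4 to 39.8 CPM in the pair, did not overlap between preparations. miR-142-3p (MIMAT0003791), the other arm, had 5.81 CPM in the biological replicate, and 9.37 and 6.88 CPM in the technical replicates. The biological library was again lowest, but its interval of 4.13 to 7.95 CPM overlapped both of the others.

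miR-155 (MIMAT0009241) had 20.9 CPM in the biological replicate, and 26.3 and 26.2 CPM in technical replicates 1 and 2. The technical pair was closer for miR-155 than for any other member, and the interval of the biological library (17.6 to 24.6 CPM) overlapped those of the pair (22.2 to 31.0 and 22.4 to 30.6 CPM). The means of miR-142-5p and miR-155 were 28.6 ± 11.9 and 23.6 ± 3.82 CPM (SD, n = 2).

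The scarcest members were those known from mature lymphocytes and neutrophils. miR-150 (MIMAT0003845) had 19 counts in the biological replicate, and 13 and 41 counts in technical replicates 1 and 2, or 2.83, 2.34 and 6.56 CPM. The biological library thus lay between the technical libraries. miR-223 (MIMAT0009270) had 7 counts in the biological replicate, and 7 and 6 counts in the technical replicates. These equalled 1.04, 1.26 and 0.960 CPM, above the limit for a count of 0 but with intervals from 0.352 to 2.60 CPM. In the order of means, miR-142-5p stood between miR-2285k and miR-31, miR-155 between let-7a-3p and miR-130a, and miR-142-3p between miR-193a-3p and miR-2285x. miR-150 stood between miR-412 and miR-340, and miR-223 between miR-2323 and miR-2457.

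**Figure D1:**
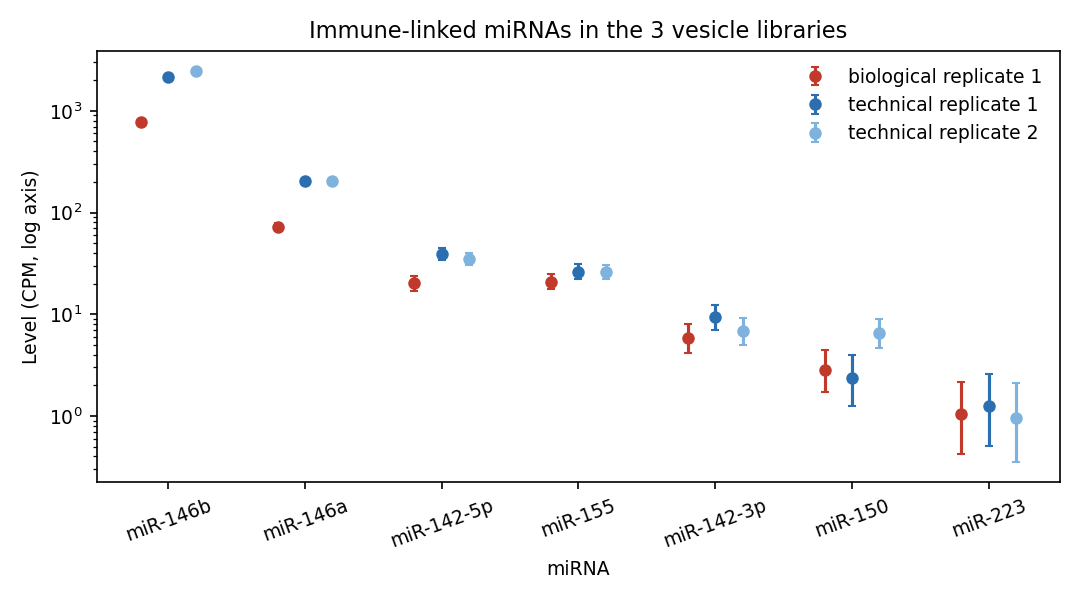
Level of each member in CPM (log axis) in biological replicate 1 (red) and technical replicates 1 and 2 (dark and light blue), with exact 95% counting intervals as bars. miR-146b lies at 777 CPM in the biological replicate and at 2174 and 2461 CPM in the technical replicates, and miR-223 lies near 1 CPM in all 3 libraries.

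The order of the levels was not the same in every library. miR-146b stood above miR-146a, and miR-146a above the rest, in all 3 libraries with intervals that did not overlap. miR-142-5p stood below miR-155 in the biological replicate, with 96.4 counts of miR-142-5p per 100 of miR-155 (exact 95% interval 75.6 to 123), and above it in the technical replicates, with 149 (120 to 185) and 133 (108 to 164). The interval of the biological replicate narrowly overlapped those of the technical replicates, and the change of order was not tested. miR-155 stood above miR-142-3p in every library with separate intervals. miR-142-3p and miR-150 had overlapping intervals in the biological replicate and in technical replicate 2 but not in technical replicate 1. miR-150 and miR-223 had overlapping intervals in the biological replicate and technical replicate 1, and separate ones in technical replicate 2.

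The mature sequences of miR-146a and miR-146b are known to be nearly identical, with the difference near the 3′ end, so the split of reads between them is uncertain. The ratio of their counts was similar in all libraries. miR-146a had 9.28 counts per 100 counts of miR-146b in the biological replicate (exact 95% interval 8.44 to 10.2), and 9.30 (8.74 to 9.88) and 8.29 (7.83 to 8.78) in technical replicates 1 and 2. All 3 intervals overlapped, those of the technical pair only narrowly. Overlap does not show that the ratios are equal, and a difference between libraries was not tested. The CPM of both miRNAs was lower in the biological replicate than in either technical replicate. Whether reads of miR-146b were counted as miR-146a was not tested.

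Of the arms of the miR-142 hairpin, miR-142-5p was the more abundant in each library. miR-142-5p held 77.6% of the counts of both arms in the biological replicate (exact 95% interval 70.7 to 83.5%), and 80.7% (75.4 to 85.2%) and 83.5% (78.5 to 87.8%) in technical replicates 1 and 2. All 3 intervals overlapped, and the mean share was 79.8% ± 3.19 (SD, n = 2). Overlap does not show that the shares are equal, and a difference between libraries was not tested.

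**Figure D2:**
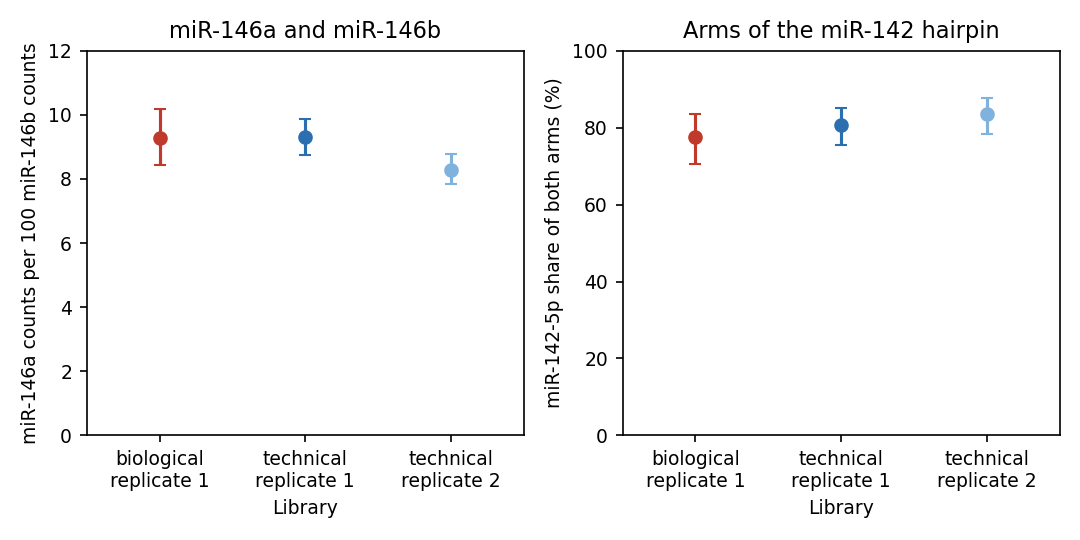
Left, counts of miR-146a per 100 counts of miR-146b, and right, share of miR-142-5p in the counts of both arms, in biological replicate 1 and technical replicates 1 and 2, with exact 95% intervals as bars. miR-146a lies between 8.29 and 9.30 per 100 and the share of miR-142-5p between 77.6 and 83.5%.

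Between the preparations the members shifted by unequal amounts. edgeR's quasi-likelihood model, with TMM scaling, was fitted to the 367 miRNAs that reached 10 counts in any of the libraries, and 6 members were among them. miR-150 entered with 41 counts in its highest library, and miR-223, with 7, did not. miR-146b had a log2 difference of -1.39 ± 0.10 (SE) for the biological library over the technical pair, which is 0.380 times the level in the pair. miR-146a had -1.31 ± 0.13, or 0.403 times. miR-142-5p followed with -0.69 ± 0.18, or 0.619 times. miR-150, miR-142-3p and miR-155 had -0.50 ± 0.35, -0.29 ± 0.29 and -0.15 ± 0.19 (all SE).

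A call in that fit is a Benjamini-Hochberg adjusted p below 0.05. Of all 367 miRNAs, 37.9% were called in either direction, 20.2% as lower and 17.7% as higher. Of the 6 members 3 were called, all as lower, a count given only as a description and no test of the members, since the set was proposed with this contrast known. The median log2 difference was -0.60 over the 6 members, against 0.01 over all 367. A log2 difference below -1 was found for miR-146b and miR-146a, and for 6.54% of the 367. In CPM, the biological library lay below both technical libraries for 5 of the 6 (miR-150 was the exception), as it did for 59.1% of the 367. Among all miRNAs fitted, 8 had a lower log2 difference than miR-146b and 10 a lower one than miR-146a, and of the 167 that averaged 100 CPM or more only miR-146b lay below miR-146a.

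**Figure D3:**
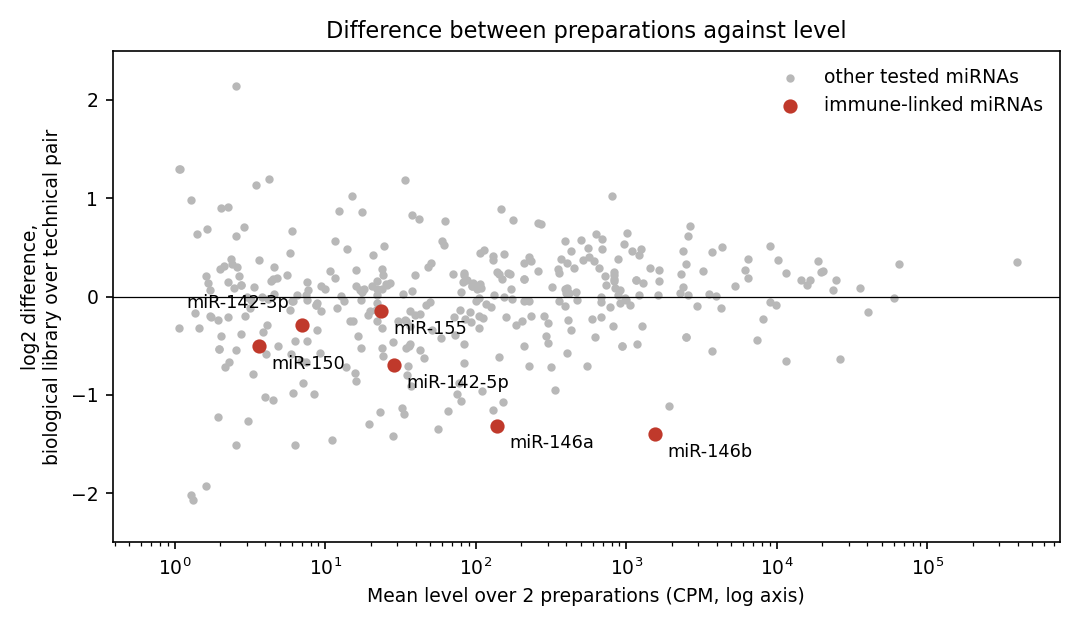
Fitted log2 difference of the biological library over the technical pair against the mean level in CPM (log axis) for the tested miRNAs, with the 6 members tested in red and other miRNAs in grey. miR-146b and miR-146a lie at -1.39 and -1.31, at the lower edge of the miRNAs of their level, and 1 other miRNA lies outside the plotted range.

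The spread of this fit came from the technical pair alone, with 1 residual degree of freedom, so it compares these libraries and not animals. In DESeq2 miR-146b and miR-146a were called but miR-142-5p was not. The log2 differences are relative to TMM scaling, which placed the biological library 0.18 log2 units higher than library totals did.

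The technical pair itself was not equally close for all members. The absolute log2 ratio within the pair was 0.0049 for miR-155, 0.014 for miR-146a, 0.18 for miR-146b, 0.17 for miR-142-5p and 0.45 for miR-142-3p, against a median of 0.12 over the 367 miRNAs. For miR-146b, miR-146a, miR-142-5p and miR-155 the fitted difference between preparations was larger than that within the pair. For miR-155 it was still smaller than its SE (-0.15 ± 0.19) and was not called. For miR-142-3p and miR-150 that within the pair was the larger. The ratio within the pair is of CPM without TMM. With library totals in the fit, miR-142-3p had -0.47, about the same size as its 0.45 within the pair. For miR-150, the ratio of technical replicate 2 over technical replicate 1 was 2.80, a log2 ratio of 1.48, with intervals of 4.71 to 8.90 and 1.25 to 4.01 CPM that did not overlap. Only 0.817% of the 367 miRNAs were further apart within the pair. Without technical replicate 2 the log2 difference of miR-150 turned positive, at 0.40, and without technical replicate 1 it was -0.98, so no direction can be given for miR-150.

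**Figure D4:**
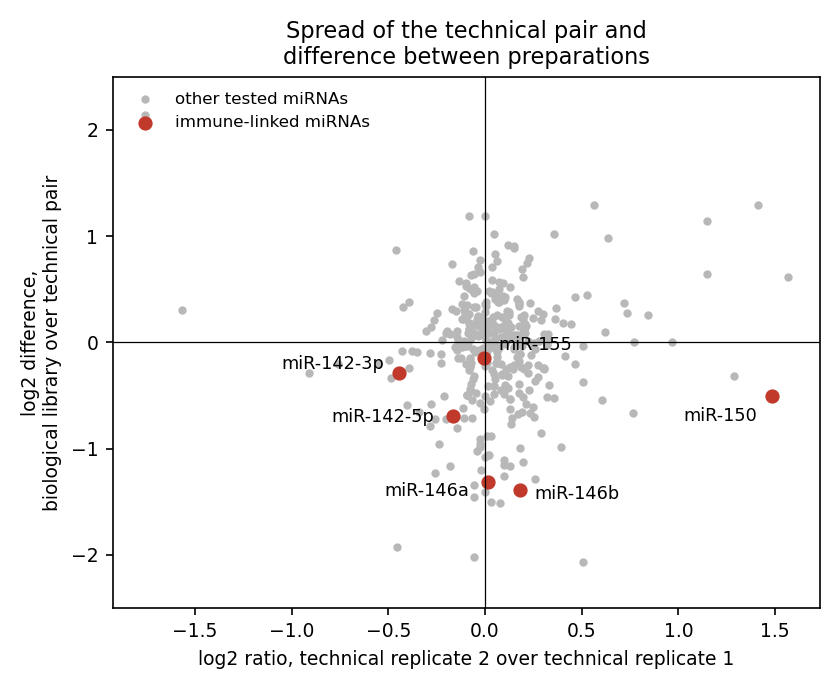
Fitted log2 difference of the biological library over the technical pair (vertical axis) against the log2 ratio of technical replicate 2 over technical replicate 1 (horizontal axis), with the 6 members tested in red and other miRNAs in grey. miR-150 stands far to the right at 1.48, whereas miR-146a and miR-146b stand near 0 on the horizontal axis, and 1 other miRNA lies outside the plotted range.

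Apart from the miR-146 pair, the 5 members known as blood cell markers were scarce in both preparations. They summed to 50.7 CPM in biological replicate 1, against 78.4 and 75.5 CPM in technical replicates 1 and 2, with none at 0 in any library. Their summed level in the biological replicate was 0.659 times that of the pair, whereas that of miR-146a and miR-146b was 0.337 times (849 CPM, against 2376 and 2665 CPM). The libraries were made from RNA of a purified vesicle fraction, with no count of cells. Fewer cells of a type, less RNA per cell and other sources of this difference cannot be told apart and were not tested.

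Markers of other cell types moved as well. Their lists were chosen with earlier results of these data known, so counts of calls in them are a description only. In the smooth muscle and fibroblast list (7 miRNAs, none at 0), miR-199a-3p and miR-199c had identical counts in every library and were taken once. The arms of miR-199a, miR-199a-3p and miR-199a-5p, were counted separately and are not independent. The 6 remaining miRNAs summed to 10249 CPM in biological replicate 1, against 16827 and 18866 CPM in technical replicates 1 and 2, and miR-143, its most abundant member, had 8206 CPM, against 13713 and 15657 CPM. Of these 6, 5 were called lower and none higher, beside 20.2% called lower among all 367. The endothelial list, both arms of miR-126, summed to 1130 CPM, against 1820 and 1888 CPM, led by miR-126-3p, and both arms, which share a hairpin, were called lower, also beside 20.2%. The erythrocyte list (miR-486, miR-451 and miR-144, none at 0) summed to 1097 CPM, against 898 and 837 CPM. Most of this sum was miR-486, with 1080 CPM against 873 and 816 CPM, which was called higher. miR-451 went the other way, with 16.8 CPM against 23.6 and 20.2 CPM, and was not called. miR-144 had 4 counts in the biological replicate and 5 and 6 in the technical replicates. The erythrocyte list thus did not move in one direction. The striated muscle list summed to 883 CPM, against 676 and 655 CPM. It was led by miR-499, with miR-208a and miR-208b at 0 throughout and miR-206 at 0 in technical replicate 1. Its log2 differences were 0.63 ± 0.10 for miR-499, 0.41 ± 0.12 for miR-1, 0.11 ± 0.26 for miR-133a and -0.32 ± 0.50 for miR-133b (all SE). The epithelial list summed to 32.2 CPM, against 28.8 and 24.2 CPM. It was led by miR-200c, with miR-429 at 0 throughout and miR-200a at 0 in technical replicate 2. Its log2 differences were 0.52 ± 0.18 for miR-200c, 0.30 ± 0.38 for miR-200b and -0.20 ± 0.43 for miR-141 (all SE). The hepatocyte miRNA miR-122 had 1 count in the biological replicate, and 6 and 6 in the technical replicates. The part of these cell types in the level of the members was not tested.

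Of 5 mature miRNAs on a list of others linked to leukocytes, 4 were tested, and 1 was called lower and none higher, a share close to the 20.2% called lower among all 367, with a median log2 difference of 0.10. miR-342, known from lymphocytes, had 46.8 CPM in biological replicate 1, against 68.3 and 74.2 CPM in technical replicates 1 and 2, a log2 difference of -0.43 ± 0.15 (SE), and was the one called. miR-181a, known from thymocytes and also from brain, had 352 CPM in biological replicate 1, against 470 and 386 CPM, and was not called. miR-181b, with 49.9 CPM against 47.8 and 44.3 CPM, was not called. miR-147, known from stimulated macrophages, had 15 counts, against 12 and 12, and was not called. miR-187 was at 0 in the biological replicate, with 1 and 2 counts in the technical replicates, and miR-511 was not analysed here.

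On a list of other miRNAs known from innate immune signalling, 9 of 10 mature miRNAs were tested. This list shares miR-147 and miR-187 with the leukocyte list above. Of these 2 were called higher, 2 lower and 5 were not called, shares close to the 17.7% and 20.2% among all 367, with a median log2 difference of 0.09. miR-132, which is induced by bacterial lipopolysaccharide in monocytes and by activity in neurons, had 1118 CPM in biological replicate 1, against 2643 and 2829 CPM, and was called lower with a log2 difference of -1.11 ± 0.10 (SE). miR-212, from the neighbouring hairpin, was the other one called lower, with -0.62 ± 0.16 (SE). Both arms of miR-9 were called higher, with 0.41 ± 0.10 and 0.89 ± 0.12 (SE) for the 5p and 3p arms. miR-21-5p, miR-125b and miR-125a, the most abundant of the list, had log2 differences of -0.16, 0.09 and 0.10 and were not called.

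The profiles over the 3 libraries were compared by the Euclidean distance of log2(CPM + 1), centred over the libraries, among those averaging 100 CPM or more, for the 4 members with at least 100 counts in every library. miR-146b and miR-146a were each other's nearest, at a distance of 0.14. Next came miR-450a and miR-132 for both, at 0.21 and 0.24 from miR-146b and at 0.14 and 0.17 from miR-146a. The miRNAs nearest to miR-142-5p were miR-126-5p, an endothelial miRNA, miR-195 and miR-29c, at 0.05, 0.05 and 0.08. Those nearest to miR-155 were miR-21-5p, miR-99b and miR-23a, at 0.015, 0.022 and 0.05. Each distance rests on 3 libraries, of which the pair was taken as the same preparation, and is a description only. The split of reads between miR-146a and miR-146b is uncertain, and their low biological library was known when the set was chosen.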

How the data were processed

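Total RNA of purified large dense-core vesicles was made into small RNA libraries with the NEBNext set, per the labels' protocols. The deposited table holds raw read counts in 919 rows (a mature miRNA and its hairpin) and CPM by the authors, which equal count over column total to within rounding (largest gap 0.005). The other deposited table has the authors' log2 values of 459 rows, those above 1 CPM in at least 2 libraries; it served only as an alternative. The submitters' processing notes name build UMD3.1 and edgeR; aligner, counter and miRBase release: not given in the sources used here.

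Of 793 mature miRNAs, 73 have several rows, and of these the row with most counts was used. edgeR 4.0.16 (R 4.3.3; TMM, quasi-likelihood, Benjamini-Hochberg over the 367 miRNAs that reached 10 counts in any of the libraries) compared the biological library with the technical pair, and the script was tested on simulated data. Standard errors were derived from the log2 difference and the F statistic. DESeq2 1.42.0 was an alternative. Other alternatives were library totals, DESeq2 size factors in edgeR, other count filters, rows summed, each library left out and, chosen after seeing the data, miR-375 left out. Taking miRNAs with identical counts once in the smooth muscle and fibroblast list was also chosen then. The members and the lists of miRNAs were chosen with earlier results of these data known. Named miRNAs are all members, their neighbours in level and in profile, and the most abundant miRNAs of the lists.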

Additional observations from a re-analysis of the deposited data

How the results depend on the processing

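No paired analysis was possible because the labels give no link between the biological library and either technical library. The log2 differences of miR-146b, miR-146a and miR-142-5p stayed negative under every alternative run, between -1.58 and -1.35, between -1.49 and -1.30 and between -0.87 and -0.59. With library totals they were -1.58, -1.49 and -0.87. With only miRNAs of at least 100 CPM fitted, miR-146b and miR-146a had -1.54 and -1.46, and they had -1.54 and -1.46 in the authors' log2 table. With a technical library left out, miR-150 ranged from -0.98 to 0.40, miR-142-3p from -0.54 to -0.04, miR-155 from -0.20 to -0.13, miR-142-5p from -0.82 to -0.59, miR-146a from -1.35 to -1.30 and miR-146b from -1.46 to -1.35; these are values with no test. Among the members, miR-146b and miR-146a were called in every edgeR fit and in DESeq2. miR-142-5p was called in the edgeR fits that held it but not in DESeq2, which gave miR-150 no adjusted p. Over all miRNAs, 139 were called (65 higher and 74 lower), against 110 with library totals (24 higher and 86 lower), 84 in DESeq2 and 70 with only miRNAs of at least 100 CPM fitted, where 167 were tested. The share of the members was 0.132% with rows summed and 0.168% to 0.260% with a library left out. miR-146a stayed between 8.79 and 9.29 per 100 of miR-146b, and the miR-142-5p share of its arms between 79.1% and 82.1%. With rows summed or in the authors' CPM, the denominators are larger and levels fall, for example to 1168 CPM for miR-146b. miR-223, at 6 to 7 counts per library, was left out of the main fit. At this depth a small difference between libraries could not be seen.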
